A study of Homo sapiens with 12 samples.

Results

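MTF2 binding in K562 cells depleted of PHF19 (sh#2) was compared with MTF2 binding in K562 cells carrying an empty vector (shCT). K562 is an established line of chronic myeloid leukemia cells with features of red cell precursors. Every peak in the MTF2 list of either condition that lies on an autosome was taken, which gave 12433 peaks for shCT and 18124 for sh#2, or 30557 of the 36410 peaks in all ChIP-seq lists of the study. A further 69 and 163 MTF2 peaks on chromosome X were set aside. A peak was called shared when it overlapped a peak of the other list by at least 1 bp, and alone otherwise.

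The study infected K562 cells with lentiviral vectors, an empty pLKO.1 (shCT) or the same vector with 1 of 2 hairpins against PHF19, and selected the infected cells with puromycin. The ChIP-seq libraries used here are MTF2 in shCT, MTF2 in sh#2 and PHF19 in shCT, with 1 library for each, and the RNA-seq enters only as the authors' mean count for each gene over all of its libraries. Both MTF2 precipitations also carried Drosophila chromatin and an antibody to the fly histone H2Av as a spike-in. MTF2 was not profiled with the other hairpin, and an shRNA lowers its target without removing it. The heading inside the sh#2 list names sh4, while the label of its sample names sh2, and the label was followed here. All 10 K562 markers checked had mean counts of 4053 or more, and 5 of 10 markers of other blood cells were under 10 (range 0 to 4514).

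MTF2 and PHF19 are related Polycomb-like proteins. Each can join the core of Polycomb repressive complex 2 (PRC2), the enzyme that methylates lysine 27 of histone H3, and each carries a domain that binds unmethylated CpG-rich DNA and a Tudor domain. Through them PRC2 is brought to CpG islands at the promoters of silent developmental regulators, such as the HOX, Wnt and forkhead genes. A member of the family that stays in the cell could occupy sites of another, which is the question that the MTF2 profile after PHF19 depletion addresses.

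With 1 library in each condition there is no replicate spread, so no difference between the lists was tested. The intervals given are 95% exact binomial intervals for shares, or order statistic intervals for medians, and they cover counting error over peaks only. The lists hold positions and a score for each peak but no reads, so depth is unknown, and the number, width and score of peaks can all depend on it.

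To show the DNA under the peaks, 1 window of 240 bases is printed from a peak of each of 4 classes described here. Each is the stretch of the peak with the most CG dinucleotides outside annotated exons, read from the plus strand of GRCh37, with every CG in capitals. The windows were chosen for their CG content, so it is no property of the whole peaks. The window at chr13:113637802-113638041, in an intron of MCF2L with 17 CG, comes from the sh#2 promoter peak over the most shCT peaks, 7, a number that 2 sh#2 peaks reach in all. The window at chr22:20142803-20143042 is intergenic, 4345 bp upstream of the nearest CCDC188 start, holds 21 CG and comes from the strongest promoter peak of sh#2 alone. The window at chr1:1959740-1959979, in an intron of GABRD with 23 CG, comes from the strongest promoter peak of shCT alone. The window at chr11:69924826-69925065, in an intron of ANO1 with 41 CG, comes from the shared promoter peak that moved furthest down in rank.
MCF2L: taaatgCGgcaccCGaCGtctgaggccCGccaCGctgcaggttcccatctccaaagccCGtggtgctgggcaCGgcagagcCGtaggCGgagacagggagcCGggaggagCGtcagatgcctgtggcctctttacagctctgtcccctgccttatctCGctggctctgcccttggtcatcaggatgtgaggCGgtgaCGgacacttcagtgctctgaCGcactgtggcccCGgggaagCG
CCDC188: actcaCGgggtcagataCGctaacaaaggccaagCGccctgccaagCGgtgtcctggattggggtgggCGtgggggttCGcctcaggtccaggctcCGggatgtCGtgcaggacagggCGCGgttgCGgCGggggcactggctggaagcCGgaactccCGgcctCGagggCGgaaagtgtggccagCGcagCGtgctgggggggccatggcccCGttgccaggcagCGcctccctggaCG
GABRD: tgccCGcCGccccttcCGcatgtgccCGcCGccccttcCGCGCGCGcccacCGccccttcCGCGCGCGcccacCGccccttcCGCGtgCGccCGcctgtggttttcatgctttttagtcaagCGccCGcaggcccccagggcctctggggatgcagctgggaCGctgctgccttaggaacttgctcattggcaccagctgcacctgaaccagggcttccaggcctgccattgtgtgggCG
ANO1: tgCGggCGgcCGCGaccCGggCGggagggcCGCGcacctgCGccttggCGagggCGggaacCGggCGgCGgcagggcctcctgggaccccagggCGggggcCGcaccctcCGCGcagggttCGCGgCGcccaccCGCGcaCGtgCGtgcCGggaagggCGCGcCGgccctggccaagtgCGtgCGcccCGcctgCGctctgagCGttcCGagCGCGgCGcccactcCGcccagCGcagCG
The ANO1 window was the densest of the 4, and the MCF2L window the sparsest.

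MTF2 peaks were more numerous and wider in sh#2. The sh#2 list held 1.46 times as many peaks, and they covered 62.9 Mb against 29.0 Mb, or 2.18% of the autosomes against 1.01%. The median peak was 1785 bp wide in shCT (1760 to 1811) and 2609 bp in sh#2 (2577 to 2641). Peaks over 5 kb numbered 906 in shCT (7.29%) and 3289 in sh#2 (18.1%), peaks over 10 kb numbered 96 and 619, and peaks over 20 kb numbered 5 and 49. Peaks over 5 kb held 22.6% of the covered bases in shCT and 42.5% in sh#2. The score of a peak began at 50 in both lists and had a median of 86.7 in shCT and 112 in sh#2, and within each list wider peaks scored higher (Spearman correlation 0.70 over the peaks of either list, which share their library).

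The excess was present on every autosome but uneven. The ratio of peak number, sh#2 over shCT, was lowest on chromosome 21 (379 and 383 peaks, ratio 1.01) and chromosome 7 (934 and 1059, ratio 1.13), and highest on chromosome 14 (217 and 431, ratio 1.99) and chromosome 15 (306 and 570, ratio 1.86). In covered bases the ratio ran from 1.59 on chromosome 7 to 3.10 on chromosome 15. Peaks on chromosomes 21 and 7 were also wide in shCT, with medians of 2447 and 2357 bp, and those on chromosome 14 were narrow, with a median of 1153 bp.

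By an overlap of 1 bp, most MTF2 peaks of control cells had a partner after PHF19 depletion, and the larger part of the sh#2 list had none in shCT. Of the shCT peaks, 10343 were overlapped by an sh#2 peak (83.2%, 82.5 to 83.8) and 2090 were not. Of the sh#2 peaks, 8532 were overlapped by an shCT peak (47.1%, 46.3 to 47.8) and 9592 were not. When the overlap had to reach 50% of both peaks, 40.6% of shCT peaks and 27.9% of sh#2 peaks had a partner, and with 50% of the counted peak alone the shares were 82.0% and 28.2%. The peaks of 1 list alone were narrower and scored lower than the shared peaks of the same list. Peaks of shCT alone had a median width of 1150.5 bp and a median score of 62.0, against 1933 bp and 96.5 for shared shCT peaks. Those of sh#2 alone had a median width of 2002 bp and a median score of 78.5, against 3724 bp and 218 for shared sh#2 peaks. In bases, 24.7 Mb lay under both lists, which is 85.4% of what shCT peaks covered and 39.4% of what sh#2 peaks covered. Of the 38.1 Mb covered in sh#2 but not in shCT, 22.95 Mb lay in peaks of sh#2 alone and 15.2 Mb (39.8%) in shared peaks that reached further than before.

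Where a single peak of each list met, the sh#2 peak was mostly the wider. A total of 6576 pairs were 1 to 1, with a single shCT peak and a single sh#2 peak over each other, and in 92.6% of them the sh#2 peak was the wider. Their median widths were 1876.5 and 3328 bp, and the median ratio within a pair was 1.59 (1.56 to 1.61), with an interquartile range of 1.21 to 2.19. In 71.1% of the pairs the shCT peak lay wholly inside the sh#2 peak, and in 2.10% the reverse held. The sh#2 peak reached a median of 379.5 bp further on the left and 438 bp further on the right. When the pairs were ordered by shCT width and split into 4 sets, the narrowest 1646 had a median of 1030 bp in shCT and 1983 bp in sh#2, and the widest 1644 had 3880 and 5670 bp. Across the 4 sets the median ratio went from 1.98 to 1.30, and the median added length went from 966 to 1270.5 bp. Because the sets are cut on the shCT width, part of this slope is built into the comparison.

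The bases added around a shared site held fewer CpG than the site itself. In the shared sh#2 peaks, the bases already covered in shCT held 3.06 CpG per 100 bases and the bases added in sh#2 held 2.10. The ratio of observed to expected CpG was 0.417 in the first and 0.314 in the second, against 0.237 for the autosomes. Among the 7566 shared sh#2 peaks with at least 200 bases of each kind, the older bases were the denser in 5424 (71.7%).

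Neighboring shCT peaks often lay under 1 sh#2 peak. In all, 1593 sh#2 peaks (8.79%) covered 2 or more shCT peaks, and 3648 shCT peaks (29.3%, 28.5 to 30.2) were merged in this way. Of these sh#2 peaks, 1233 covered 2 shCT peaks, 260 covered 3, 73 covered 4, 23 covered 5, 2 covered 6 and 2 covered 7. The opposite, an shCT peak over 2 or more sh#2 peaks, was found for 271 shCT peaks (2.18%). The median merged peak was 7093 bp wide, where the shCT peaks under it summed to a median of 4797 bp. The gaps that were closed had a median of 306.5 bp, 77.0% of them were under 1 kb, and the longest was 8480 bp. Taken by gap length, an sh#2 peak covered 74.9% of the gaps of up to 500 bp between neighboring shCT peaks (1335 of 1782), 34.99% of those of 1 to 2 kb (296 of 846) and 1.36% of those of 5 to 10 kb (19 of 1402). The converse share, gaps between sh#2 peaks covered by an shCT peak, was 8.62% up to 500 bp (262 of 3040) and 0.157% at 1 to 2 kb (2 of 1272).

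**Figure D1:**
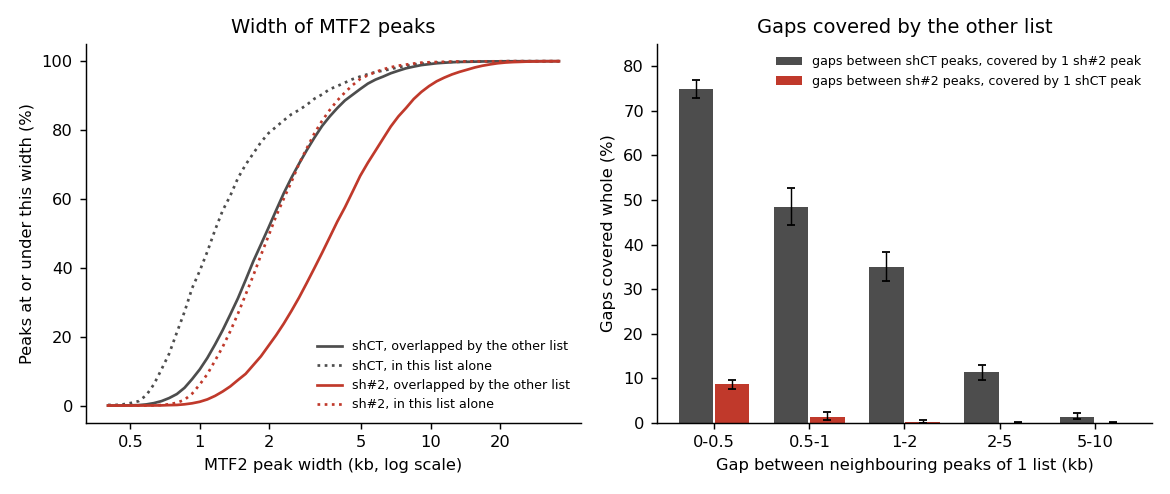
Left, cumulative share of MTF2 peaks (%) at or under each width (kb, log axis) for shCT (grey) and sh#2 (red), with peaks overlapped by the other list as solid lines and peaks of 1 list alone as dotted lines. Right, share of the gaps between neighboring peaks of 1 list (%) that a single peak of the other list covers, by gap length (kb), with 95% exact binomial intervals as error bars. The curve of shared sh#2 peaks lies to the right of that of shared shCT peaks over nearly the whole range, while the curves of peaks alone meet near their upper end, and at gaps of up to 0.5 kb the bars stand at 74.9% and 8.62%.

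Single sh#2 peaks at promoters covered up to 7 control peaks. The peak over MCF2L spanned chr13:113627378-113642897 (15520 bp) and covered 7 shCT peaks that summed to 14021 bp. A peak inside ANO1, which encodes a calcium-activated chloride channel, covered 6 in 17364 bp. The 3 next peaks covered 5 each. They lay over SIX3, a homeobox factor of the forebrain and eye (18171 bp), GALNT9, an enzyme of O-linked glycosylation (15156 bp), and RBFOX3, a neuronal splicing factor (11176 bp). Their scores were unlike. SIX3 scored 1041 (rank 430 of the sh#2 list) and the ANO1 peak scored 124 (rank 8245.5), although both were made of several control peaks.

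Stronger peaks were shared more often. Among the shCT peaks, the share overlapped by sh#2 was 96.2% in the decile with the highest scores and 59.7% in the lowest. Among the sh#2 peaks it was 98.3% in the highest decile, 44.5% in the fifth decile and 13.98% in the lowest. All of the 100 highest-scoring peaks of either list had a partner in the other, and 58 of the 100 in shCT lay over 1 of the 100 in sh#2. At 1000 peaks this was 658 (65.8%, 62.8 to 68.7), and at 5000 peaks 75.02%. Over the 10343 shared shCT peaks, each taken with its highest-scoring partner, the scores of the lists had a Spearman correlation of 0.51. It was 0.64 over the 1 to 1 pairs, and the widths of these pairs had one of 0.68. These coefficients describe sites that share their library, and wide regions enter the first of them several times.

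**Figure D2:**
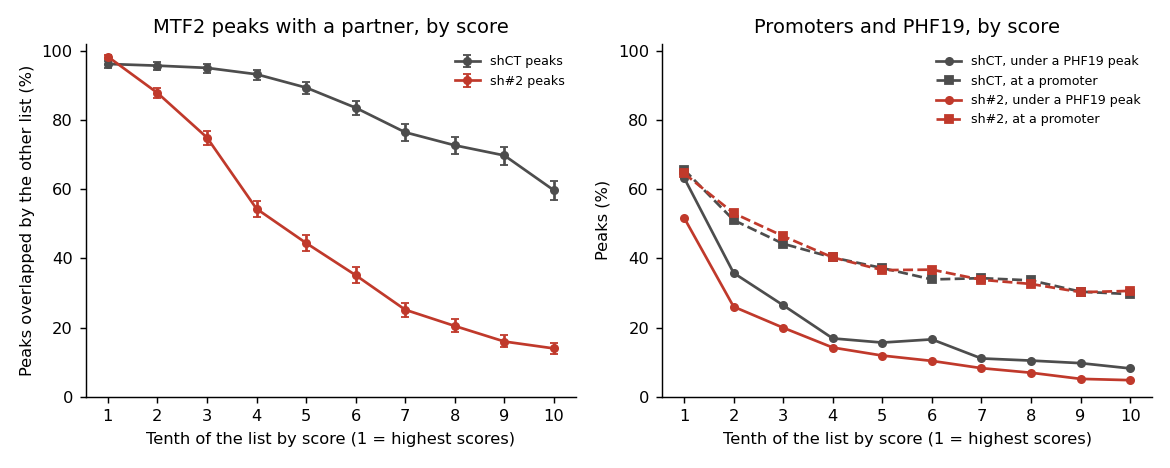
Left, share of MTF2 peaks (%) that a peak of the other list overlaps, for each decile of score from the highest (1) to the lowest (10), in shCT (grey) and sh#2 (red), with 95% exact binomial intervals. Right, share of the same deciles (%) under a PHF19 peak of shCT (circles) or within 2.5 kb of a transcript start (squares). The overlap goes from 96.2% to 59.7% in shCT and from 98.3% to 13.98% in sh#2, while the promoter shares of the lists lie close together.

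The 5 shared promoter peaks with the best summed rank were all under a PHF19 peak of control cells as well. So were 63.3% of all shCT peaks and 51.8% of all sh#2 peaks in the highest decile of score. EFNA2, an ephrin ligand, ranked 6 in shCT and 1 in sh#2, and its width was 13063 bp in shCT and 13312 bp in sh#2. LHX1, a LIM homeobox factor of kidney and head development, ranked 2 in shCT, with widths of 7017 and 7567 bp. UNCX, a homeobox factor of the somites, ranked 3, with widths of 15853 and 19192 bp. BMP6, a ligand of the BMP family, ranked 4, with widths of 5415 and 8990 bp. GJC1, a gap junction protein, ranked 5, with widths of 3413 and 6531 bp. The last 4 tied at rank 7 in sh#2. At EFNA2 and LHX1, the sh#2 peaks were only 1.91% and 7.84% wider than in shCT, and at BMP6 and GJC1 they were 66.0% and 91.4% wider.

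The 3 promoter peaks that moved furthest up in rank and the 3 that moved furthest down all belonged to groups with more than 1 shCT peak. Among all 10343 shared shCT peaks, 3648 were in such groups. Each shCT peak was paired with its highest-scoring partner, so in a group a weak and a strong shCT peak can take the same partner and its rank. The shCT peak at BICDL2 scored 51.2 (rank 12009 of 12433), and the sh#2 peak it touched ranked 44. A peak at BHLHE23, a basic helix-loop-helix factor, ranked 11499 in shCT, and its partner of 20693 bp ranked 63. A peak of 1584 bp at HOXD3 ranked 10973.5, and its partner of 12294 bp ranked 35. That partner also lay over a neighboring shCT peak of 10293 bp that ranked 66, so the region as a whole ranked high in both lists. In the other direction, an shCT peak of 5892 bp at ANO1 ranked 1305 and its partner of 20089 bp ranked 14813.5. Peaks of 3659 and 5963 bp at RGMA, which encodes a guidance molecule and BMP co-receptor, ranked 219 and 314, and both lay under 1 sh#2 peak of 16598 bp that ranked 9972. These peaks were chosen for their shift in rank. In the sh#2 list, 70 of the 619 peaks over 10 kb (11.3%) scored below the median of their list, as did 9 of 96 in shCT (9.38%).

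Shared and sh#2-only peaks had different surroundings. A promoter was taken as 2.5 kb on either side of any annotated transcript start. By that rule, 40.0% of shCT peaks (39.2 to 40.9) and 40.5% of all sh#2 peaks (39.8 to 41.2) overlapped a promoter. Among sh#2 peaks the share was 53.6% for those over 2 or more shCT peaks, 47.7% for all shared peaks (46.6 to 48.8) and 34.1% for those of sh#2 alone (33.2 to 35.1). Among shCT peaks it was 42.7% for shared peaks, 41.8% for the shared peaks that were merged and 26.7% for those alone (24.8 to 28.7). Wider peaks meet a promoter more easily, and the classes differ in width. By the midpoint of the peak alone, which takes no account of width, the share was 37.1% for shared sh#2 peaks and 27.5% for sh#2 alone. Peaks of sh#2 alone lay within genes in 38.3% of cases and between genes in 27.6%. The classes also differ in score, and these shares were not set at equal score. Promoter shares went from 65.7% in the highest decile of score to 29.7% in the lowest in shCT, and from 64.6% to 30.6% in sh#2. In decile 7 of sh#2, with scores of 75.9 to 90.7 around the median of sh#2 alone (78.5), the share was 33.8%.

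CpG density was also higher in shared peaks than in peaks of 1 list alone. The median ratio of observed to expected CpG was 0.347 in shared shCT peaks, 0.338 in shared sh#2 peaks, 0.294 in sh#2 peaks alone (0.292 to 0.296) and 0.276 in shCT peaks alone (0.271 to 0.283), all above the 0.237 of the autosomes. Median GC content was 53.1%, 52.3%, 50.1% and 47.4% in the same order, against 41.0% for the autosomes. Promoter peaks of sh#2 alone had a median ratio of 0.327, and shared sh#2 peaks at promoters had 0.389. From the highest to the lowest decile of score, the ratio went from 0.430 to 0.290 in shCT and from 0.392 to 0.283 in sh#2. It was 0.297 in decile 7 of sh#2, whose scores lie around the median of sh#2 alone. The ratios of the classes were not set at equal score.

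PHF19 peaks of control cells lay more often under shared and merged MTF2 peaks than under peaks of 1 list alone. The deposited PHF19 list holds more peaks than the set that the study kept after a filter on tags, so weaker PHF19 peaks are included. A PHF19 peak overlapped 21.4% of shCT MTF2 peaks (20.7 to 22.2), 8.995% of shCT peaks alone, 26.9% of shared sh#2 peaks, 38.7% of sh#2 peaks over 2 or more shCT peaks and 6.27% of sh#2 peaks alone (5.79 to 6.77). From the highest to the lowest decile of score, the share went from 63.3% to 8.21% in shCT and from 51.8% to 4.81% in sh#2. The classes differ in score and width, and their shares were not set at equal score or width. Of the shCT peaks that were merged, 25.1% were overlapped by a PHF19 peak, against 23.9% of all shared shCT peaks. Of the 5598 autosomal PHF19 peaks, 2657 (47.5%) had an MTF2 peak in shCT and 3215 (57.4%) had one in sh#2. Among these PHF19 peaks, 752 (13.4%) had MTF2 in sh#2 alone, 194 (3.47%) in shCT alone and 2189 (39.1%) in neither. Of the 9592 MTF2 peaks in sh#2 alone, 601 lay over a listed PHF19 peak.

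**Figure D3:**
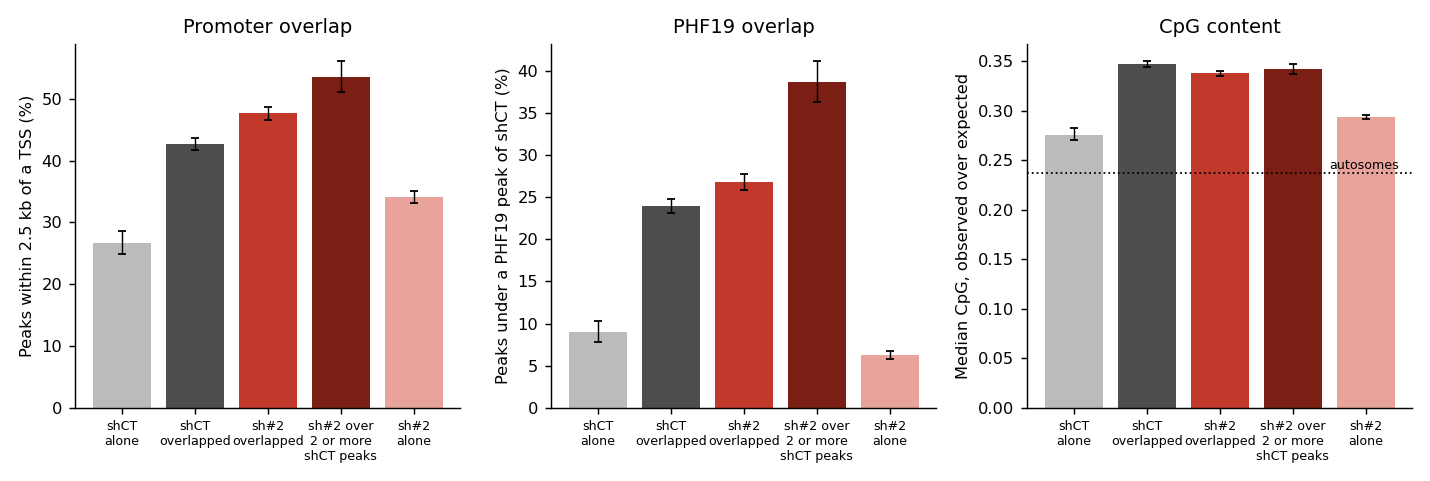
Share of MTF2 peaks within 2.5 kb of a transcript start (%), share under a PHF19 peak of shCT (%) and median ratio of observed to expected CpG, for shCT peaks alone or overlapped, sh#2 peaks overlapped, sh#2 peaks over 2 or more shCT peaks, and sh#2 peaks alone. Error bars are 95% exact intervals over peaks and the dotted line is the autosomal ratio, 0.237. The sh#2 peaks over 2 or more shCT peaks stand highest for promoters (53.6%) and PHF19 (38.7%), and they are also the widest (median 7093 bp). Peaks of 1 list alone stand lowest in all 3 panels.

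Peaks of sh#2 alone were not all neighbors of control peaks. Their median distance to the nearest shCT peak was 11749.5 bp, 32.4% lay within 5 kb of one and 22.4% lay over 50 kb away. For shCT peaks alone, the median distance to the nearest sh#2 peak was 7959 bp. The strongest promoter peaks of sh#2 alone lay over CCDC188 (11796 bp, score 936, rank 535, 104344 bp from any shCT peak), FOXF2, HOXA3 with HOXA5, TMEM233 and CCDC85C. FOXF2 encodes a forkhead factor of mesenchyme. Its sh#2 peak spanned chr6:1376597-1397840, or 21244 bp, with a score of 808, while the nearest shCT peak lay 2330 bp away and a PHF19 peak of control cells lay beneath it. The HOXA3 and HOXA5 peak scored 698 over 5904 bp, TMEM233 scored 627 and CCDC85C scored 585. The ratio of observed to expected CpG was 0.262 in the CCDC188 peak, near that of the autosomes, and 0.650 in the FOXF2 peak. In CpG per 100 bases, the CCDC188 peak held 2.39 and the FOXF2 peak 5.15, against 0.997 for the autosomes.

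Some of the strongest promoter peaks of shCT alone were wide. The peak at GABRD, a subunit of the GABA-A receptor, spanned chr1:1958202-1971607 (13406 bp) with a score of 620 and rank 308 of 12433. It had no sh#2 peak within 15097 bp. Peaks at ADAMTSL2 (2968 bp, score 460) and MYMK, which encodes a protein of myoblast fusion (6969 bp, score 458), lay next to each other on chromosome 9, and an sh#2 peak lay 85 bp from the first of them. Peaks at RNF112 (6814 bp, score 440) and PRDM16, a zinc finger factor of brown fat (7245 bp, score 432), completed the set. These peaks were chosen for having no partner, so that lack is how they were found.

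At the level of genes, 19229 protein-coding genes on the autosomes were examined. A peak lay at a promoter of 12.1% of them in shCT (2321 genes) and 16.8% in sh#2 (3225 genes). Both lists shared 2185 genes, 1040 genes (5.41%) had a promoter peak in sh#2 alone, and 136 genes (0.707%) in shCT alone. With the 12433 highest-scoring peaks of each list, the last 2 counts were 687 and 242. Among the 2185 shared genes, 1960 (89.7%) had more promoter bases under sh#2 peaks than under shCT peaks, by a median over all of them of 1317 bp. When a target was defined as a gene with a peak anywhere from 2.5 kb upstream to its end, 2880 genes were targets in shCT and 3765 in sh#2. The 2688 genes in common were 93.3% of the first set and 71.4% of the second.

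Genes with a promoter peak were more often silent in K562 than genes without, whichever list they came from. The share of genes with a mean count under 10 was 58.0% for genes in both lists (55.9 to 60.1), 58.7% for genes in sh#2 alone (55.6 to 61.8), 42.7% for genes in shCT alone (34.1 to 51.7) and 27.9% for genes in neither (27.1 to 28.6). The mean count is taken over control and PHF19-depleted libraries together and is not corrected for gene length. It says which genes were silent but not whether one differed between conditions.

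Wnt ligands, the secreted proteins that start the pathway, often had a promoter peak in both lists. Of 19 ligand genes, 11 had a promoter peak in shCT (57.9%) and 14 in sh#2 (73.7%), against 12.1% and 16.8% of all genes. WNT5A, WNT10A and WNT11 had one in sh#2 alone. At WNT10A, 3 sh#2 peaks covered 6712 bp of promoter, at WNT11 a peak of rank 2642 covered 3443 bp, and at WNT5A a peak of rank 3467 covered 2181 bp. Of the 11 ligands in both lists, 10 had more promoter bases in sh#2, where 89.7% of all genes in both lists did. WNT7A had 2055 bp of promoter under shCT peaks and 6628 bp under sh#2 peaks, and WNT7B had 4304 and 8925 bp. WNT9A was the 1 with fewer, with 4570 and 4508 bp and best ranks of 553 and 5166.5. At WNT4, which the study uses as an example, shCT peaks of 10232 and 3547 bp faced 1 sh#2 peak of 16603 bp, and the best ranks were 479 and 597. Mean counts were under 10 for 13 of the 19 ligands.

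Among Wnt receptors, 3 of 15 had a promoter peak in shCT (20%) and 6 in sh#2 (40%), against 12.1% and 16.8% of all genes. FZD7, FZD10 and the co-receptor LRP5 had one in sh#2 alone, and all 3 peaks ranked below the median of the list (13532.5, 11498.5 and 13059.5 of 18124). FZD3 had a peak in both, with rank 569 in shCT and 278 in sh#2. FZD1, also in both, had 2756 bp of promoter under peaks in shCT and 1019 bp in sh#2, at ranks of 2723 and 8777. Of 16 secreted inhibitors of the pathway, the same 7 had a peak in each list. Over all genes in both lists, 89.7% had more promoter bases in sh#2, and all 7 inhibitors did. They included DKK3 (3325 and 11355 bp), SFRP1 (3175 and 7484 bp), SFRP2 (2953 and 4577 bp) and FRZB (2897 and 4692 bp). NOTUM, which encodes an enzyme that removes the lipid of Wnt proteins, ranked 519 in shCT and 224 in sh#2. Among 20 transducers and feedback genes, 9 had a peak in shCT and 10 in sh#2. CTNNB1, which encodes beta-catenin and had a mean count of 8799, was the one in sh#2 alone, with a best rank of 10579. TCF7L1, a transcription factor of the pathway, had 3990 and 8978 bp, and LGR6, a receptor for R-spondins, had 4236 and 7367 bp.

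The 4 HOX clusters were unlike each other in how far they were covered. Over all 39 HOX genes, 18 had a promoter peak in shCT (46.2%) and 25 in sh#2 (64.1%), against 12.1% and 16.8% of all genes. Of the 18, 17 had more promoter bases in sh#2 and none had fewer, where 89.7% of all genes in both lists had more. Neighboring HOX genes can lie under the same peak, as HOXD9, HOXD10 and HOXD11 did (best ranks 726 and 295), so these genes are not independent counts. HOXA had 5 of its 11 genes with a promoter peak in shCT and 10 in sh#2. Its 8 shCT peaks covered 10.99% of the cluster and its 16 sh#2 peaks covered 73.3%. Of the 16, 11 met no shCT peak, where 52.9% of all sh#2 peaks met none. In shCT the peaks lay at HOXA13 and HOXA11, with small ones in HOXA9 and HOXA3, while in sh#2 they ran along most of the cluster. HOXA2, HOXA5 and HOXA6 were among the genes that had a promoter peak in sh#2 alone, and the whole 7830 bp promoter window of HOXA6 was covered. HOXA9, a factor of blood stem cells and leukemia, had 2429 bp in shCT and 13034 bp in sh#2, HOXA10 had 356 and 9743 bp, and HOXA3 had 2413 and 15077 bp. The median mean count of the HOXA genes was 0.934, and 10 of the 11 were under 10.

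HOXD was already covered in control cells. Its 11 shCT peaks covered 63.5% of the cluster and its 7 sh#2 peaks covered 83.0%, and all 9 genes had a promoter peak in each. A peak of sh#2, of 21301 bp, ranked 5730 and lay over shCT peaks that ranked 206, 513, 713 and 9086. HOXC was covered to 21.4% in shCT and 33.7% in sh#2, mostly at the end of the cluster that holds HOXC13, HOXC12 and HOXC11. HOXB was sparsely covered in both lists (6.80% and 11.3%), with peaks near HOXB13 and none at the promoters of the other 9 genes, and its median mean count was 228, the highest of the 4 clusters.

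**Figure D4:**
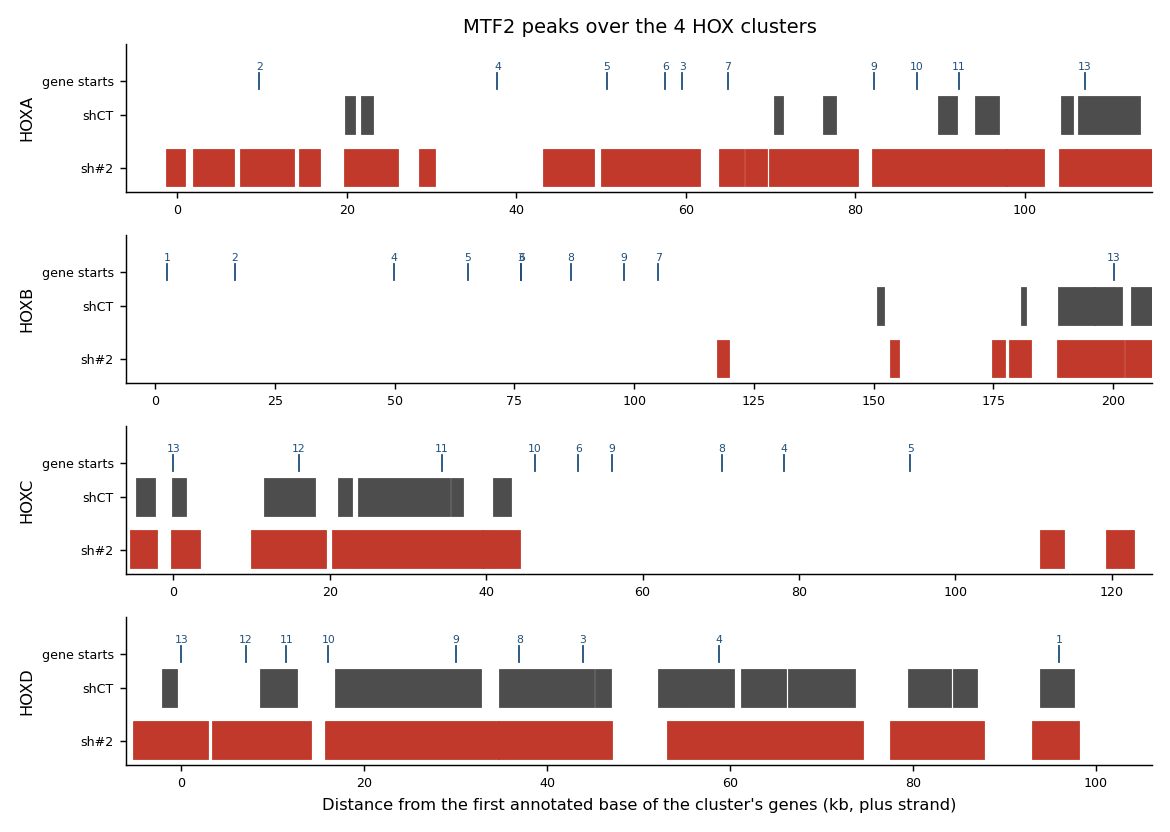
MTF2 peaks of shCT (grey) and sh#2 (red) over the HOXA, HOXB, HOXC and HOXD clusters, drawn to scale by distance from the first annotated base of the genes of each cluster (kb), with numbered ticks at the 5' ends of genes. The shortest gaps are too short to see. The share of HOXA under peaks is 10.99% in shCT and 73.3% in sh#2, and that of HOXD is 63.5% and 83.0%.

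Other families of developmental regulators were covered in both lists. Among 85 homeobox genes outside HOX, 44 had a promoter peak in shCT (51.8%) and 56 in sh#2 (65.9%). The shares over all genes were 12.1% and 16.8%. Of the 44 in both, 38 had more promoter bases in sh#2 and 4 had fewer, where 89.7% of all genes in both lists had more. PAX3, a neural crest factor, had 2278 and 8652 bp and best ranks of 5194 and 362. PAX5, the regulator of B cells, had 11793 bp under 7 shCT peaks and 17501 bp under 4 sh#2 peaks. NKX2-1, NKX2-3, PAX8 and NKX2-6 were among the 12 with a peak in sh#2 alone, and NKX2-1, a thyroid and lung factor, had 5654 of 6457 bp of its promoter window covered with a best rank of 618.

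Among 32 forkhead genes, 12 had a promoter peak in shCT (37.5%) and 15 in sh#2 (46.9%), against 12.1% and 16.8% of all genes. Of the 11 in both, 8 had more promoter bases in sh#2 and 2 had fewer, where 89.7% of all genes in both lists had more. FOXF2, FOXS1, FOXD3 and FOXI1 had one in sh#2 alone, and FOXP2 in shCT alone, where a peak reached 97 bp into its promoter. The neighbors FOXF1 and FOXL1 had 418 and 2040 bp in shCT and 4635 and 7046 bp in sh#2. FOXN4, a retinal factor, ranked 226 in shCT and 28 in sh#2. At FOXC1, the peak over the gene was 1521 bp wide in shCT and 1908 bp in sh#2, and the peak just upstream of it was 10877 and 16269 bp.

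BMP, NODAL and activin genes showed no difference in number, with 13 of 32 in each list (40.6%). Over all genes the shares were 12.1% in shCT and 16.8% in sh#2. INHBA had a peak in sh#2 alone and GREM1, a BMP antagonist, in shCT alone, where it covered 548 bp at rank 11301.5. Over all genes in both lists, 89.7% had more promoter bases in sh#2, and all 12 BMP, NODAL and activin genes in both lists did. They included BMP7 (4149 and 12607 bp), the BMP antagonist CHRD (2656 and 5122 bp) and NODAL (6785 and 8887 bp), where 1 shCT peak of 8124 bp faced sh#2 peaks of 7429 and 5649 bp.

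Groups of genes that K562 cells express had few MTF2 peaks in either list. None of 12 autosomal PRC2 subunit genes had one, and 2 of 41 erythroid genes (4.88%) and 1 of 72 genes of cytosolic ribosomal proteins (1.39%) had one, the same number in shCT and sh#2. Over all genes the shares were 12.1% in shCT and 16.8% in sh#2. The erythroid genes were BCL11A, a repressor of fetal globin (6672 and 8187 bp, mean count 70.0), and ANK1, the ankyrin of the red cell membrane (4387 and 5083 bp, mean count 7220). The globin genes and KLF1 had none. Among markers of other blood cells, only MPO had a promoter peak (2362 and 5453 bp).

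Of 7 CDK inhibitor genes, CDKN1A and CDKN1C (28.6%) had a promoter peak in both lists and the other 5 in neither. Over all genes the shares were 12.1% in shCT and 16.8% in sh#2. K562 is known to lack CDKN2A and CDKN2B by deletion, so no peak could be listed there. CDKN1A, which encodes p21, went against the general widening. Its peak spanned chr6:36643477-36649009 in shCT (5533 bp, score 117, rank 4324 of 12433) and chr6:36643370-36647467 in sh#2 (4098 bp, score 98.2, rank 10181 of 18124). It thus stood in the top 34.8% of the shCT list and the top 56.2% of the sh#2 list. CDKN1C had 1016 bp in shCT and 1491 bp in sh#2.

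The genes that the study shows as examples were also looked up. All 9 of them had a promoter peak in both lists, and as genes chosen on these samples they are not independent evidence of a direction. ATF3, a stress response factor, ranked 54 in shCT and 21 in sh#2, with peaks of 6575 and 7634 bp. At PDGFRA, a growth factor receptor, shCT peaks of 4032 and 1558 bp lay under 1 sh#2 peak of 8403 bp. PLCG2, which encodes a phospholipase C of immune cells, had a peak of 2432 bp in shCT and 4 promoter peaks in sh#2, of which 3 lay at inner transcript starts and met no shCT peak. CDKN1A and ATF3 were the 2 of 9 genes with fewer promoter bases in sh#2. At ATF3 an upstream shCT peak of 1295 bp, with a score of 50.5, had no sh#2 partner.

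**Figure D5:**
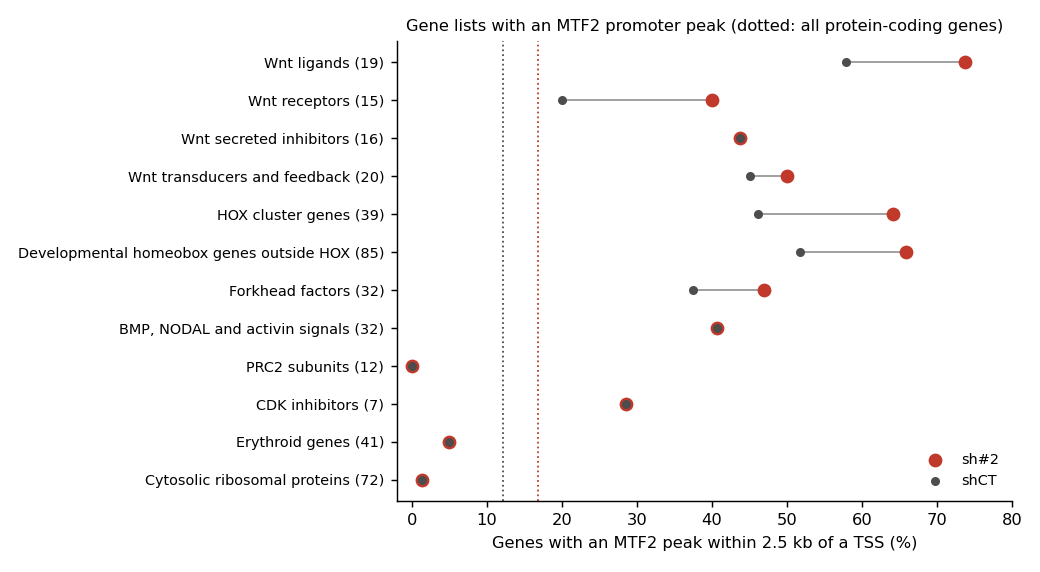
Share of each gene list (%) with an MTF2 peak within 2.5 kb of a transcript start, in shCT (small grey points) and sh#2 (large red points), with the number of autosomal genes in parentheses. Dotted lines mark the same share over all 19229 protein-coding genes, 12.1% in shCT and 16.8% in sh#2. Wnt ligands stand at 57.9% and 73.7%, and erythroid and ribosomal protein genes lie left of both dotted lines.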

How the data were processed

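The authors mapped ChIP-seq reads with Bowtie to hg19 joined to dm3, kept unique reads, and called peaks with MACS at default parameters and a shift size of 100 bp against a control library, which the list headings name igg. Their filter of PHF19 peaks on tags appears not to have been applied to the deposited PHF19 list, which is longer than their filtered set. The version of neither program, nor any use of the spike-in for the lists, is given in the sources used here. Each line of the deposited lists has coordinates and a peak score, and libraries were called singly. What the peak score measures is not stated in the sources used here, so it was treated as a score alone. For RNA-seq the authors deposited a DESeq2 table, of which only each gene's normalized count averaged over the libraries was used. Its other columns hold their fold changes and p-values and were not used.

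Overlaps, widths, ranks and shares were computed with Python 3.11.15, numpy 2.4.6, pandas 2.3.3 and SciPy 1.17.1, and the interval code was tested on simulated lists. Genes and exons came from GENCODE on GRCh37, of whose 19229 protein-coding autosomal genes 18226 matched a mean count by symbol, and sequence came from the GRCh37 assembly, which has the coordinates of hg19. Transcript starts were those of all annotated transcripts. Coordinates are 1-based. Named genes were taken by rule: the examples of the study, the promoter genes at the extremes of each class of peak, and in each list up to 4 genes with the most added promoter bases and up to 4 with a peak in 1 list alone. The peaks, gene lists and rules were chosen with earlier results of these data known. With 1 library for each condition no test between conditions was made, and alternatives for overlap, score, width and promoter definitions were computed. Some items are not reported here.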

Additional observations from a re-analysis of the deposited data

How the results depend on the processing

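Of 61 alternative values for 16 results, 26 stayed within the interval of the reported value (or within 1.5 times for counts) and 35 moved. No alternative reversed the direction of the ratios of peak number and peak width. A reversal was defined for these ratios alone. Including chromosome X moved none of the 16. With peaks scoring at least 112 in both lists, the number ratio was 2.00 and the width ratio 1.31. With peaks within 1 kb joined, the number ratio was 1.40, the shared shares 82.0% (shCT) and 49.5% (sh#2) and the merged share 22.7%. With the 12433 highest-scoring peaks of each list, the width ratio was 1.847, the shared shares 75.9% and 60.9%, and genes in sh#2 alone and shCT alone 687 and 242. On 1 to 1 pairs, the width ratio was 1.77 and the correlation of scores 0.64. The shared shares were 82.0% and 28.2% by overlap of 50% of the counted peak, 40.6% and 27.9% by reciprocal overlap of 50%, and 85.4% and 51.2% among peaks at or above the median score of their list. The merged share was 27.1% by overlap of 50% of the shCT peak. Promoter shares of shCT, shared sh#2 and sh#2-only peaks were 31.3%, 41.0% and 25.1% at 1 kb, 33.7%, 37.1% and 27.5% by midpoint, and 28.9%, 34.8% and 22.5% for protein-coding starts. The CpG ratios were 0.341 (shCT) and 0.301 (sh#2 alone) over 1000 bases around the midpoint. PHF19 shares of shCT and sh#2-only peaks were 14.6% and 2.99% with PHF19 peaks at or above their median score, and 17.9% and 4.50% by midpoint.

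No paired analysis was possible because each condition has 1 MTF2 library. The reads behind the lists were not used here, and shares were not set at equal depth. The lowest listed score is 50 in both lists, so weaker sites of either library are not counted. A difference between the hairpin and the empty vector cannot be told apart from a difference between 2 libraries.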
